A study of Mus musculus with 12 samples.

Results

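The Hippo pathway restrains growth through a pair of transcriptional coactivators, YAP (gene Yap1) and TAZ (gene Wwtr1), and 10 genes of this pathway were followed here in mouse fibroblasts. They were taken by symbol, from a list chosen with earlier results of these data known. It holds the coactivators Yap1 and Wwtr1, their DNA-binding partner Tead1 and the kinase gene Lats2. The regulators Amotl2 and Ajuba and the target genes Ccn1, Ccn2, Ankrd1 and Axl complete it. All 10 were found among the 54392 genes of the deposited table and all 10 were among the 15073 genes with enough reads to be tested. TAZ is not tafazzin, the cardiolipin-remodelling enzyme whose gene carries the symbol Taz in the annotation used.

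The cells were NIH-3T3, an immortalised line of mouse embryonic fibroblasts, and RNA was measured by sequencing of rRNA-depleted total RNA. The clones KO1, KO2 and KO3 (genotypes Crls1KO1, Crls1KO2 and Crls1KO3) came from cells given a plasmid with Cas9 and a guide RNA against Crls1, the cardiolipin synthase gene. They were compared with WT cells (genotype Crls1WT), with 3 libraries of each of the 4 genotypes. Each clone grew from 1 sorted GFP-positive cell, so a difference of 1 clone from WT cannot be told apart from a difference between single cells. All groups shared 1 medium with 4.5 g/L glucose, 2 mM glutamine, 10% serum, 1 mM pyruvate and 50 µg/ml uridine. The labels do not state how dense the cultures were at harvest, whether WT cells went through the sort, or whether the libraries of a clone were separate cultures, so every p-value measures only the spread between these libraries, which may be technical.

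YAP and TAZ carry no DNA-binding domain of their own. In the nucleus they bind TEAD transcription factors and raise the transcription of genes such as Ccn1, Ccn2 and Ankrd1, which are widely read as a sign of their activity. The kinases MST1 and MST2 activate LATS1 and LATS2, which phosphorylate YAP and TAZ and so keep them in the cytoplasm or mark them for breakdown. In cultured fibroblasts cell density, spreading, actin tension and serum lipids are known to act on this step, and RNA levels do not report where the proteins are or whether they are phosphorylated.

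TEAD factors are known to bind the sequence GGAATG, read as CATTCC on the other strand. RefSeq promoter windows (build GRCm38.p6), which hold the 250 bases before and the 50 bases after an annotated start site, were present for 8 of the 10 genes, all except Ccn2 and Tead1. Each of these 8 genes had GGAATG on either strand in at least 1 window, in 9 of their 10 windows in all, whereas 14.7% of all 32851 windows and 14.9% of the 10604 tested genes with an entry held it. The genes were chosen as textbook members and targets of this pathway, and a match of 6 letters is a description of the window, not a bound site. The 250 bases before the start site are shown for Ccn1 (chr3:145649986-145650235, minus strand), Ankrd1 (chr19:36119845-36120094, minus strand) and Amotl2 (chr9:102717554-102717803, plus strand), whose RNA levels carry the main differences below. They are written 5′ to 3′ on the gene's strand, with the motif in capitals.
Ccn1: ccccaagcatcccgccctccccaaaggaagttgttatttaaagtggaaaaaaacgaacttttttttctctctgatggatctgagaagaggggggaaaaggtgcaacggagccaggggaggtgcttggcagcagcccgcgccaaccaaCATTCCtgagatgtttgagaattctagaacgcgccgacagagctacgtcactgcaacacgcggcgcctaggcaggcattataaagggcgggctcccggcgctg
Ankrd1: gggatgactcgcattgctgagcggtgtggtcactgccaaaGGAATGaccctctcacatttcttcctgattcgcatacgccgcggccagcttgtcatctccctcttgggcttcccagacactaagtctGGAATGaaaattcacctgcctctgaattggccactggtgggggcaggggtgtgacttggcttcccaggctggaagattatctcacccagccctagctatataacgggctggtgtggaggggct
Amotl2: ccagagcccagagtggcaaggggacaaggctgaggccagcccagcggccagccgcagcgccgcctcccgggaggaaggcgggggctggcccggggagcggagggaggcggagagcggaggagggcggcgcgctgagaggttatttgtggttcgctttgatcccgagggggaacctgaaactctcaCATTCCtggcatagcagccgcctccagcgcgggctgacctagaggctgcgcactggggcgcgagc

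In these windows the motif begins 103 bases before the RefSeq start site of Ccn1 and 65 before that of Amotl2. In Ankrd1 it begins at both 210 and 123 bases before that site. For the windows of Amotl2, Ankrd1 and Lats2 shown here, the RefSeq start site lies inside the gene coordinates given below, which are those of GENCODE M21. These windows are thus not upstream of the whole annotated gene. The other genes with an entry are shown as 30 bases around the motif, to compare what flanks the same 6 letters in genes whose RNA differed less.
Yap1: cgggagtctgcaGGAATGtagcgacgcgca
Wwtr1: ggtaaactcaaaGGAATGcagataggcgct
Axl: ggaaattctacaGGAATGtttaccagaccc
Ajuba, first site: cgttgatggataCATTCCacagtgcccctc
Ajuba, second site: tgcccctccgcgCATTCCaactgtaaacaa
Lats2: cgtgacgcccgtGGAATGccaacaatgtag

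These sites lie at chr9:8004720-8004749 (Yap1), chr3:57576029-57576058 (Wwtr1), chr7:25788949-25788978 (Axl), chr14:54577830-54577859 and chr14:54577808-54577837 (Ajuba) and chr14:57746102-57746131 (Lats2), all on the minus strand. The motif begins 141 bases before the RefSeq start site in Yap1, 136 in Wwtr1, 233 in Axl, and 186 and 164 in Ajuba. From another RefSeq start site of Wwtr1 the same motif is 170 bases away. In Lats2 it begins 5 bases into the RefSeq transcript. The AP-1 sequence TGANTCA (N is any base, both strands searched) was in 0 of the 8 genes and in 6.59% of the 10604 tested genes with an entry. The CArG box, the site of serum response factor, was likewise in 0 of the 8 and in 1.52% of those tested genes. At shares this low, 0 of 8 says nothing particular about these genes. Outside the 10 genes GGAATG was in 6 of 20 genes with an entry among Hippo kinases and upstream regulators, in 4 of 7 among nuclear partners, and in 2 of 10 among other genes of a YAP and TAZ target signature.

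Depth was 32929242 to 42211807 reads per library, and values are normalized counts, that is reads divided by the authors' size factor for the library. Crls1, the edited gene, averaged 210 ± 2.67 in KO1, 349 ± 21.1 in KO2 and 381 ± 23.9 in KO3, against 815 ± 68.4 in WT (SD, n = 3 each), and no clone library reached the lowest WT library. WT replicate 1 stood apart: the chi-square over genes, divided by its degrees of freedom, was 53.3 between its reads and those of WT replicate 2 and 56.5 with WT replicate 3, but 17.5 between WT replicates 2 and 3 and 4.68 to 25.7 within a clone. No pair of libraries agreed within sampling noise. Fibroblast markers were expressed in every group, and 10 of 10 were tested. Their summed level was 895798 to 938248 in KO1, 984087 to 1027950 in KO2, 936285 to 954162 in KO3 and 933792 to 1012800 in WT. Fn1 and Col1a2 were its largest parts, with WT means of 339695 and 308395. Single markers moved under that sum. Col3a1 averaged 7939 in KO1, 884 in KO2 and 3664 in KO3, against 148 in WT. Pdgfra averaged 26299 in KO2, against 7355 in WT. Col1a2 was lower in KO1, KO2 and KO3, with log2 differences of -0.37, -0.31 and -0.41, and so was Pdgfrb, with -0.49, -0.26 and -0.50. Sparc was lower in KO2 (-0.29) and KO3 (-0.44). Epithelial markers summed to 345 to 371 in KO1, 183 to 208 in KO2, 305 to 330 in KO3 and 97.6 to 112 in WT, 2 of 6 were tested, and Cldn4 was at 0 in every library. The 2 went opposite ways: Cdh1 rose, with log2 differences of 4.24 in KO1, 3.33 in KO2 and 4.06 in KO3, and Krt8 fell, with -3.91, -3.04 and -4.17. Skeletal muscle markers summed to 1505 to 1616 in KO1, 207 to 253 in KO2, 154 to 170 in KO3 and 70.6 to 115 in WT, nearly all of it Myf5 in KO1 (1378 ± 33.1) and Des elsewhere, with Myod1 at 0 in every library. Endothelial markers summed to 189 to 241 in KO1, 522 to 606 in KO2, 29.0 to 85.2 in KO3 and 23.5 to 36.1 in WT, mostly Cdh5 in KO1 (164 ± 20.6) and Tie1 in KO2 (500.3 ± 15.6). Leukocyte markers summed to 116 to 139 in KO1, 65.3 to 73.8 in KO2, 41.2 to 74.6 in KO3 and 97.3 to 118 in WT. Ptprc was at 32.3 ± 7.76 in KO1 and at 0.35 ± 0.60 in WT. Itgam went the other way, with means of 22.9 in KO1, 8.67 in KO2 and 5.49 in KO3, against 40.8 in WT. Cd68 overlapped WT in every clone, with means of 61.4 in KO1, 53.6 in KO2 and 53.7 in KO3, against 58.1. The part of these lists in the differences below was not tested.

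**Figure D1:**
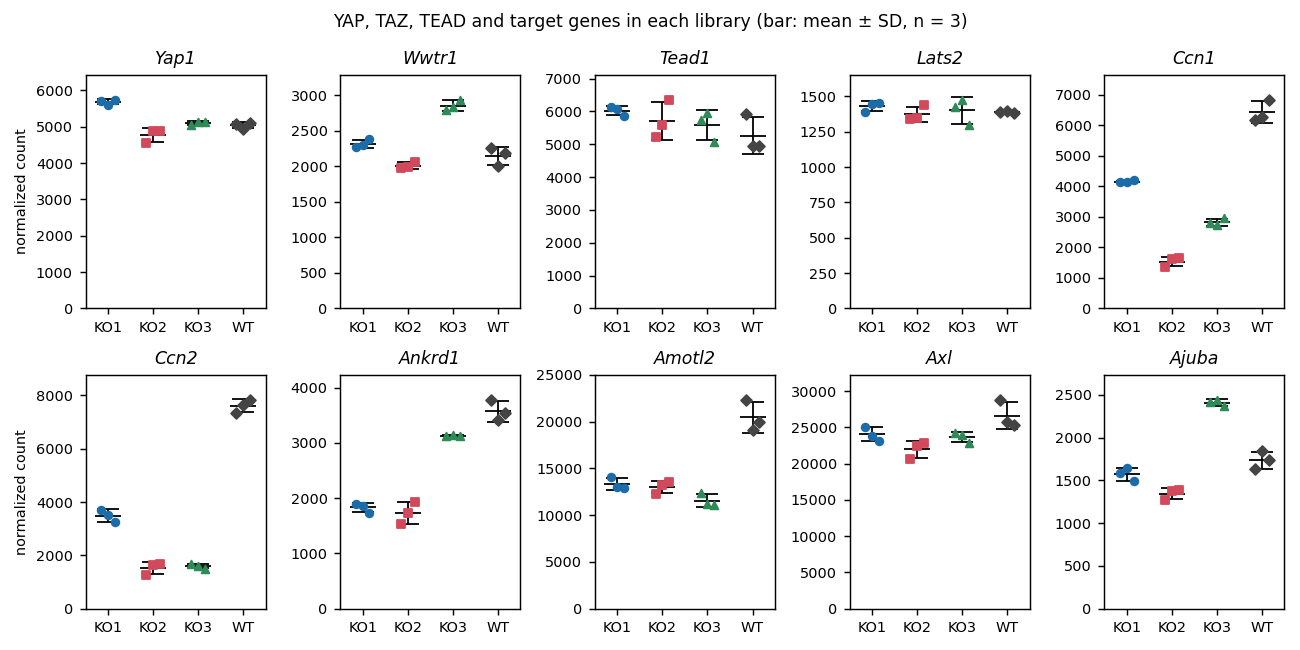
Normalized counts of the 10 genes in every library of KO1, KO2, KO3 and WT (x axis), each point 1 library and the bars the mean ± SD (n = 3). Each panel has its own y axis, which starts at 0. The Ccn1, Ccn2 and Amotl2 points of every clone lie below the WT points, while the Lats2 and Tead1 points of clones and WT overlap.

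Against WT, the largest differences among the 10 genes in KO1 and KO2 were lower levels of the targets Ccn2, Ccn1 and Ankrd1 and of Amotl2. In KO3 they were lower Ccn2, Ccn1 and Amotl2, followed by higher Ajuba (0.47) and Wwtr1 (0.41), with Ankrd1 at -0.19. Yap1, Tead1 and Lats2 stayed within 0.20 of WT on the log2 scale in the fit described next. By limma's moderated test on log2 values, with Benjamini-Hochberg adjustment over all genes tested and a threshold of 0.05, 4 of the 10 genes fell and 1 rose in KO1, where 25.4% of all tested genes fell and 26.9% rose. Without WT replicate 1, 5 fell and 3 rose in KO1, and with the neighbours' median subtracted 6 fell and 2 rose. Of all 15073 tested genes 3848 fell and 4139 rose under the first setting, and 3467 fell and 3521 rose under the second. In KO2 6 fell and 0 rose, where 30.5% of all tested genes fell and 29.9% rose. In KO3 5 fell and 2 rose, where 27.3% fell and 26.8% rose. The 10 genes had a median log2 difference of -0.14 in KO1, -0.32 in KO2 and -0.08 in KO3, and all tested genes had medians of 0.02, 0.00 and 0.00. The libraries of clone and WT did not overlap for 7 of the 10 genes in each comparison, against 59.5%, 62.4% and 58% of all tested genes. In either direction 5, 6 and 7 of the 10 genes were called, near the background of 52.3%, 60.4% and 54.1% of all tested genes, so these counts say nothing particular about the 10 genes. The 3 comparisons share the WT libraries and are not independent of each other.

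**Figure D2:**
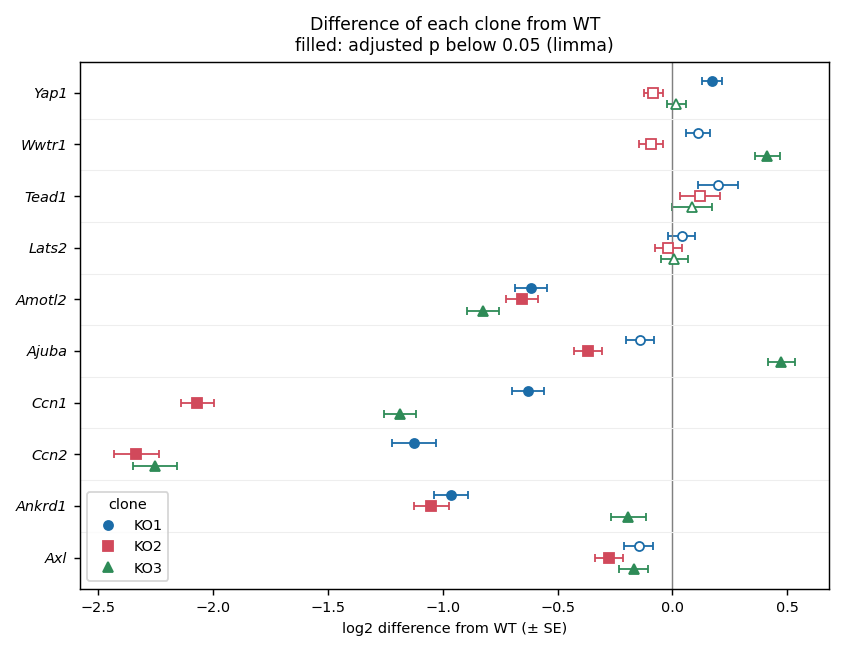
Log2 difference of KO1, KO2 and KO3 from WT for each of the 10 genes (x axis, ± SE of the limma fit; genes down the y axis), with filled symbols for an adjusted p below 0.05. Ccn2 lies farthest to the left, at -1.13 in KO1, -2.33 in KO2 and -2.25 in KO3, and the Lats2 symbols lie at zero.

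Yap1 (chromosome 9, 7931999 to 8004596, minus strand; GRCm38, as for all coordinates), the gene of YAP, had 5713, 5606 and 5746 normalized counts in KO1, 4544, 4873 and 4881 in KO2, 5056, 5138 and 5117 in KO3, and 5086, 4943 and 5105 in WT. All KO1 libraries were above and all KO2 libraries below the WT range, and KO3 overlapped it. Yap1 rose in KO1 by 0.17 on the log2 scale (SE 0.04, adjusted p = 0.00459), to 113% of the WT mean. In KO2 the difference was -0.08 (adjusted p = 0.114; 95% interval -0.18 to 0.01) and in KO3 0.02 (adjusted p = 0.763; interval -0.08 to 0.11). The KO1 value was 0.14 (adjusted p = 0.0776) once the median of the 10 nearest tested genes on each side was subtracted in each library, a check on chromosome-wide differences between lines. By the same check the KO2 value passed, at -0.32 (adjusted p = 0.000602), since the median difference of the genes around Yap1 was 0.24 there.

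Wwtr1 (chromosome 3, 57455649 to 57575910, minus strand), which encodes TAZ, had 2269, 2298 and 2380 normalized counts in KO1, 1982, 1987 and 2062 in KO2, 2800, 2829 and 2939 in KO3, and 2252, 2000 and 2187 in WT. KO3 stood above all other libraries, KO1 lay just above WT, and KO2 overlapped WT. Wwtr1 rose in KO3 by 0.41 (SE 0.05, adjusted p = 3.21e-05), to 133% of the WT mean, or by 0.45 without WT replicate 1. The differences of 0.11 in KO1 (adjusted p = 0.0999) and -0.09 in KO2 (adjusted p = 0.15) did not pass. The first passed at 0.15 without WT replicate 1 (adjusted p = 0.0308) and the second at -0.14 without WT replicate 2 (adjusted p = 0.0354). The KO1 value also passed with quantile normalization, at 0.16 (adjusted p = 0.0164). With the neighbours' median subtracted Wwtr1 was at 0.33 in KO2 (adjusted p = 0.000923), since the median difference of the genes around it was -0.42 there.

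Tead1 (chromosome 7, 112679318 to 112906807, plus strand), the TEAD factor of this set, averaged 6018 ± 137 in KO1, 5721 ± 579 in KO2 and 5579 ± 457 in KO3, against 5264 ± 557 in WT (SD, n = 3 each). Its WT libraries were at 5907, 4938 and 4947, so that WT replicate 1 reached into the range of every clone. The log2 differences were 0.20 in KO1 (adjusted p = 0.0789; 95% interval 0.01 to 0.39), 0.12 in KO2 (adjusted p = 0.259; -0.07 to 0.31) and 0.09 in KO3 (adjusted p = 0.438; -0.11 to 0.28). Without WT replicate 1 they were 0.28 (adjusted p = 0.0102), 0.21 (adjusted p = 0.0415) and 0.17 (adjusted p = 0.0888). Tead1 also passed in KO1 and KO2 with quantile normalization, at 0.33 (adjusted p = 0.000997) and 0.28 (adjusted p = 0.00295). The same held with the neighbours' median subtracted, at 0.27 (adjusted p = 0.0173) and 0.26 (adjusted p = 0.0167). In KO3 it passed under neither setting.

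Lats2 (chromosome 14, 57689662 to 57758388, minus strand), which encodes the kinase that phosphorylates YAP and TAZ and is itself a target gene of theirs, had 1390, 1447 and 1456 normalized counts in KO1, 1341, 1344 and 1437 in KO2, 1426, 1478 and 1298 in KO3, and 1392, 1396 and 1383 in WT. Every clone overlapped WT. The log2 differences of 0.04 in KO1, -0.02 in KO2 and 0.01 in KO3 had 95% intervals of -0.09 to 0.17, -0.15 to 0.11 and -0.12 to 0.14, with adjusted p of 0.585, 0.814 and 0.915. The annotated gene Gm49361 overlaps Lats2 on the same strand and shares 41.7% of its 31-base stretches, but held 0.48 normalized counts on average, against 1399 for Lats2.

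Amotl2 (chromosome 9, 102716672 to 102733418, plus strand), an angiomotin family scaffold that binds YAP at junctions and is also induced by it, had 14123, 13000 and 12906 normalized counts in KO1, 12273, 13178 and 13520 in KO2, and 12339, 11156 and 11097 in KO3, against 22326, 19133 and 19924 in WT. The highest clone library was thus well below the lowest WT library. Amotl2 fell by 0.61 in KO1 (adjusted p = 1.23e-05), 0.65 in KO2 (adjusted p = 5.08e-06) and 0.83 in KO3 (adjusted p = 7.32e-07), each with an SE of 0.07. These are 65.2%, 63.5% and 56.4% of the WT mean. Because WT replicate 1 was the highest WT library, the values without it were smaller, at -0.55, -0.59 and -0.76, and all passed.

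Ajuba (chromosome 14, 54567472 to 54577558, minus strand), a LIM protein that binds LATS kinases and restrains them, moved in opposite directions in KO2 and KO3. It had 2420, 2440 and 2364 normalized counts in KO3, 1271, 1375 and 1386 in KO2 and 1584, 1641 and 1493 in KO1, against 1633, 1838 and 1733 in WT. KO3 lay above and KO2 below every WT library, while KO1 overlapped WT. Ajuba rose in KO3 by 0.47 (SE 0.06, adjusted p = 2.9e-05) and fell in KO2 by 0.37 (adjusted p = 0.000195). In KO1 it was at -0.14 (adjusted p = 0.0686), or -0.18 without WT replicate 1 (adjusted p = 0.0201). With the neighbours' median subtracted the KO3 value was 0.12 (adjusted p = 0.159), since the median difference of the surrounding genes was 0.35 there.

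Ccn2 (chromosome 10, 24595442 to 24598683, plus strand), also known as connective tissue growth factor, is a secreted matrix protein and a widely used target gene of YAP. It had 3706, 3512 and 3242 normalized counts in KO1, 1251, 1631 and 1678 in KO2, and 1661, 1616 and 1508 in KO3, against 7340, 7638 and 7827 in WT. Every clone library was below every WT library, and KO2 and KO3 overlapped each other in a range below that of KO1. Ccn2 fell in every clone, with log2 differences of -1.13 in KO1 (adjusted p = 1.1e-06), -2.33 in KO2 (adjusted p = 1.31e-09) and -2.25 in KO3 (adjusted p = 1.49e-09), each with an SE of 0.10. These are fitted levels of 0.458, 0.198 and 0.210 times that of WT. The genes around Ccn2 were higher in the clones, by a median of 0.53, 0.27 and 0.49. In bulk RNA, fewer cells with a transcript and less of it per cell cannot be told apart.

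Ccn1 (chromosome 3, 145646976 to 145649981, minus strand), also known as Cyr61, encodes a secreted integrin-binding protein of the same family. It had 4141, 4133 and 4197 normalized counts in KO1, 1359, 1607 and 1644 in KO2, and 2788, 2739 and 2950 in KO3, against 6182, 6262 and 6849 in WT. The 4 groups did not overlap at all, with WT highest, then KO1, KO3 and KO2. Ccn1 fell by 0.63 in KO1 (adjusted p = 1.16e-05), 2.07 in KO2 (adjusted p = 2.42e-10) and 1.19 in KO3 (adjusted p = 2.86e-08), each with an SE of 0.07. Its clone means were 64.6%, 23.9% and 43.9% of the WT mean. KO3 thus overlapped KO2 for Ccn2 but lay between KO1 and KO2 for Ccn1.

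Ankrd1 (chromosome 19, 36111961 to 36120099, minus strand), an ankyrin repeat protein best known from heart muscle that acts in the nucleus and on the sarcomere, had 1895, 1863 and 1739 normalized counts in KO1 and 1535, 1735 and 1929 in KO2, against 3779, 3410 and 3536 in WT. KO3 had 3125, 3137 and 3120, just under the lowest WT library. Ankrd1 fell by 0.96 in KO1 (adjusted p = 4.51e-07) and 1.05 in KO2 (adjusted p = 1.58e-07), each with an SE of 0.08, to 51.3% and 48.5% of the WT mean. The KO3 difference was -0.19 (adjusted p = 0.0477), or 87.5% of the WT mean, and was called only narrowly. That call was lost on leaving out WT replicate 1 or 3, any 1 KO1 or KO3 library, or KO2 replicate 2 (adjusted p = 0.054 to 0.124), and the value was 0.00 with the neighbours' median subtracted. The 3 targets therefore differed in how the clones ranked: KO3 was near WT for Ankrd1 and far from it for Ccn2.

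Axl (chromosome 7, 25757273 to 25788705, minus strand), a receptor tyrosine kinase for the ligand Gas6 and a target gene of YAP, had the highest counts of the set and small differences. It had 25068, 23851 and 23154 normalized counts in KO1, 20617, 22428 and 22884 in KO2 and 24220, 23883 and 22849 in KO3, against 28784, 25730 and 25387 in WT. All clone libraries were below all WT libraries, but the gap to KO1 was a small one. Axl fell in KO2 by 0.28 (SE 0.06, adjusted p = 0.00213), or by 0.22 without WT replicate 1. The KO1 value of -0.15 did not pass (adjusted p = 0.0667), and did without WT replicate 3 (-0.18, adjusted p = 0.0495). It also passed by DESeq2 on recovered reads (-0.15, adjusted p = 0.039). With the neighbours' median subtracted it was larger, at -0.55 (adjusted p = 0.00266). The genes around Axl were higher in KO1, KO2 and KO3, by a median of 0.40, 0.42 and 0.25. The KO3 value of -0.17 passed (adjusted p = 0.0369), but not without WT replicate 1 (-0.11, adjusted p = 0.0973), KO1 replicate 2 or any 1 KO3 library (adjusted p = 0.0529 to 0.115).

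The clones were then set against each other, which shows how far the 10 genes vary between lines that carry edits of the same gene. In KO2 against KO1, 5 of the 10 genes fell and 0 rose, where 23.9% of all tested genes fell and 20.5% rose. In KO3 against KO1, 4 fell and 3 rose, where 23.4% fell and 20.3% rose. In KO3 against KO2, 0 fell and 4 rose, where 27% fell and 26.1% rose. In either direction 44.4%, 43.6% and 53.1% of all tested genes were called, against 5, 7 and 4 of the 10. Ranges of the clones were apart for 6, 7 and 5 of the 10 genes, against 59.7%, 59.7% and 62% of all tested genes. Since these comparisons use the clone libraries already set against WT, they add no independent replicate.

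Of the 10 genes, Ccn1 and Ccn2 had the largest differences between clones. Ccn1 was lower in KO2 than in KO1 by 1.44 on the log2 scale (adjusted p = 1.41e-08) and lower in KO3 than in KO1 by 0.56 (adjusted p = 4.81e-05). It was higher in KO3 than in KO2 by 0.88 (adjusted p = 5.82e-07). For Ccn2, KO2 minus KO1 was -1.21 (adjusted p = 1.13e-06) and KO3 minus KO1 was -1.13 (adjusted p = 1.97e-06). The Ccn2 difference between KO3 and KO2 was 0.08 (adjusted p = 0.515; 95% interval -0.13 to 0.29). Ankrd1 went the other way: it was higher in KO3 than in KO1 by 0.77 (adjusted p = 5.66e-06) and than in KO2 by 0.86 (adjusted p = 1.32e-06), while its KO2 minus KO1 value was -0.09 (adjusted p = 0.388). Ajuba and Wwtr1 were likewise highest in KO3, by 0.62 and 0.30 over KO1 and by 0.84 and 0.51 over KO2, with adjusted p from 2.3e-07 to 0.000599. Yap1 was lower in KO2 than in KO1 by 0.26 (adjusted p = 0.000401) and lower in KO3 than in KO1 by 0.16 (adjusted p = 0.0103). With the neighbours' median subtracted, its KO3 minus KO1 value of -0.15 did not pass (adjusted p = 0.0738). Its KO3 minus KO2 value did, at 0.32 (adjusted p = 0.00093).

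Amotl2 varied little between the clones, with KO3 minus KO1 at -0.21 (adjusted p = 0.0271), KO3 minus KO2 at -0.17 (adjusted p = 0.0538) and KO2 minus KO1 at -0.04 (adjusted p = 0.693). The first was lost without KO1 replicate 1 (adjusted p = 0.112) or KO3 replicate 2 or 3 (adjusted p = 0.0885 and 0.0887). The second passed without WT replicate 1 or 2, KO2 replicate 1 or KO3 replicate 1 (adjusted p = 0.0177 to 0.048). It also passed with other scalings, a filter at a mean of 100, only these 2 clones, or the neighbours' median subtracted (adjusted p = 0.00302 to 0.048). On recovered reads it passed by edgeR (adjusted p = 0.0343) and DESeq2 (adjusted p = 0.038). This difference thus lies at the threshold and depends on the method. No clone pair differed past the threshold for Tead1, Lats2 or Axl, with all their clone differences between -0.13 and 0.11 on the log2 scale. With quantile normalization KO3 minus KO1 passed for Tead1 (-0.18, adjusted p = 0.0445) and Axl (-0.18, adjusted p = 0.0449). For Axl KO2 minus KO1 passed with it (-0.18, adjusted p = 0.0372) and without WT replicate 1 (adjusted p = 0.0412).

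Per kilobase of the longest annotated transcript, which allows genes to be compared, WT cells had most Axl (6245 ± 439 normalized counts per kilobase, SD, n = 3) and least Lats2 (268 ± 1.30). Between them came Amotl2, Ccn1, Ccn2, Ankrd1, Yap1, Tead1, Ajuba and Wwtr1, in that order. In WT the ranges of Ccn1 and Ccn2 overlapped, as did those of Tead1 and Ajuba, so their order is not set. The level of Ccn2 per kilobase was 1400 ± 93.6 in KO1, 610 ± 94.0 in KO2 and 640.5 ± 31.6 in KO3, against 3053 ± 98.7 in WT, and it thus lay below that of Yap1 in KO2 and KO3 and above it in WT. Yap1 itself was at 1077 ± 13.9, 902 ± 36.3 and 966 ± 8.08 per kilobase in KO1, KO2 and KO3, against 955 ± 16.8 in WT. In KO2 the ranges of Yap1, Ankrd1, Ccn1, Ccn2 and Tead1, in falling order, each overlapped that of the next. Ankrd1 (760 to 955) still lay above Ccn2 (502 to 674) there, while Ccn1 overlapped both. The longest Yap1 transcript is annotated as a retained intron. With the longest coding transcript the WT order was unchanged.

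**Figure D3:**
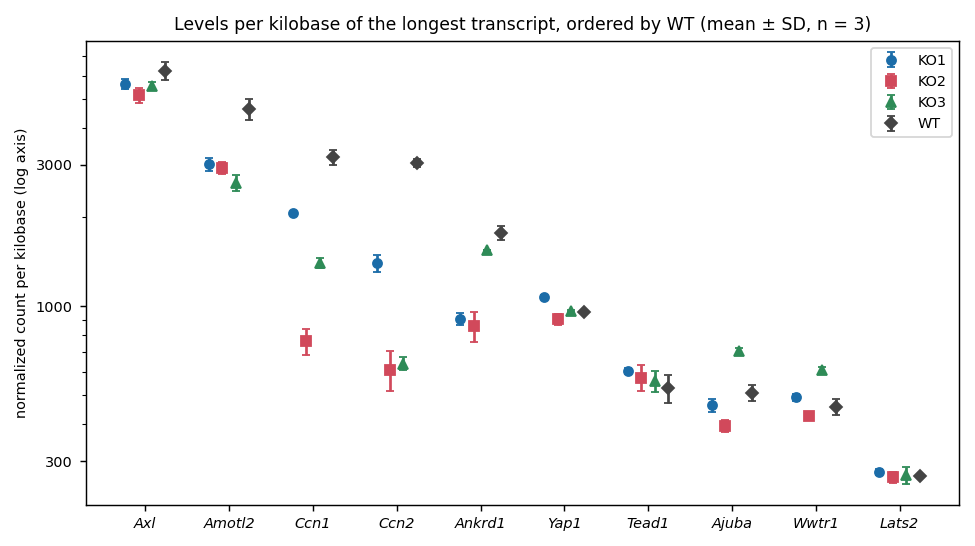
Normalized counts per kilobase of the longest annotated transcript (log y axis) for KO1, KO2, KO3 and WT, as mean ± SD of 3 libraries, with the genes on the x axis in the order of their WT levels. Ccn1, Ccn2 and Ankrd1 span the widest range between groups, and Lats2 is lowest in all of them at 265 to 276.

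Upstream of YAP and TAZ, a list of 29 Hippo kinases and upstream regulators, including Lats2, Amotl2 and Ajuba, was tested in full. Against WT, KO1 had 5 that rose and 10 that fell, KO2 had 7 that rose and 12 that fell, and KO3 had 10 that rose and 7 that fell. The median log2 differences were -0.05, -0.06 and 0.09, beside 0.02, 0.00 and 0.00 for all tested genes. Without WT replicate 1 the counts were 7 and 11 in KO1, 11 and 11 in KO2, and 12 and 8 in KO3, so the KO2 count of risen genes depends on that library. Of all 15073 tested genes 4139 rose and 3848 fell in KO1 then, 4595 and 4605 in KO2, and 4164 and 4205 in KO3. The shares of all tested genes that rose were 26.9%, 29.9% and 26.8%, and 25.4%, 30.5% and 27.3% fell. Of the core kinase genes, Stk3, which encodes MST2, was at -0.07 in KO1 and rose by 0.71 in KO2 and 0.28 in KO3. Lats1, the partner of Lats2, was at 0.10 in KO1, fell by 0.30 in KO2 and rose by 0.45 in KO3. Without WT replicate 1 its KO1 value was 0.17 (adjusted p = 0.0397). Taok3, a kinase that can activate MST kinases, rose by 0.75 in KO1, 0.95 in KO2 and 0.76 in KO3 (adjusted p = 1.08e-06, 1.06e-07 and 8.55e-07).

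Among the scaffolds at junctions and membrane, Nf2, which encodes merlin, fell by 0.43 in KO1, 0.42 in KO2 and 0.36 in KO3. Ptpn14, a phosphatase that binds YAP and a target gene as well, fell by 0.46, 0.44 and 0.81, and the LATS-binding LIM protein gene Limd1 by 0.34, 0.39 and 0.35. The angiomotins went apart: Amot fell by 0.42 in KO1, 0.53 in KO2 and 1.00 in KO3, like Amotl2, whereas Amotl1 rose by 0.67 in KO1 and 1.23 in KO3 and was at 0.19 in KO2 (adjusted p = 0.07), or 0.27 without WT replicate 1 (adjusted p = 0.0104). Frmd6, a band 4.1 protein upstream of the kinases, rose by 0.16, 0.83 and 0.34. The atypical cadherin gene Fat4 fell by 0.51 in KO1 and 0.57 in KO3 and rose by 0.63 in KO2, where its mean was 2649 ± 251, against 1722 ± 261 in WT. Its relative Fat1 was at -0.17 in KO1 and fell by 0.30 in KO2 and 0.92 in KO3.

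**Figure D4:**
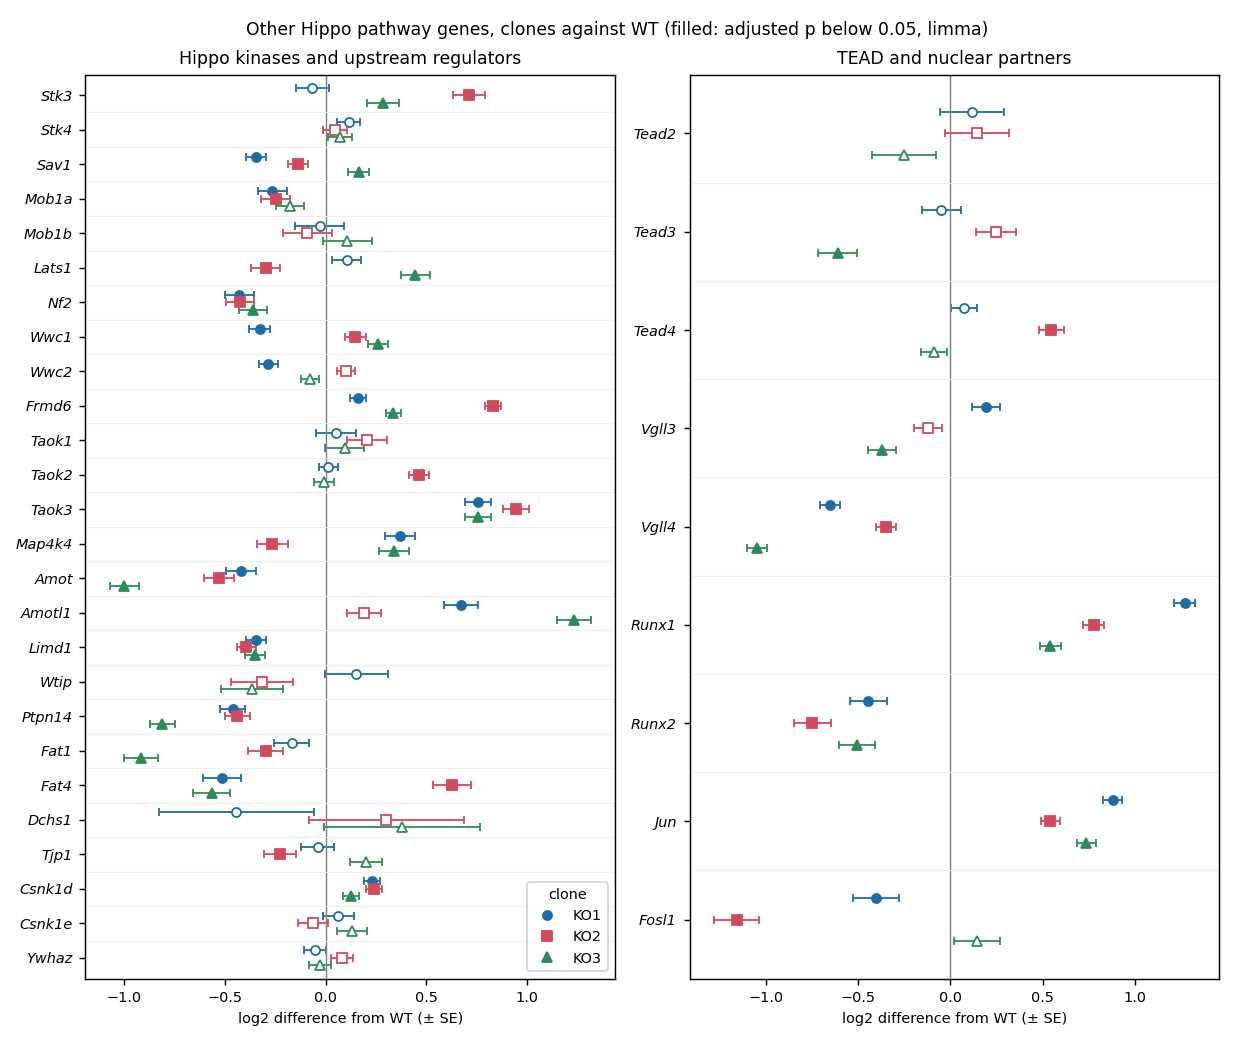
Log2 difference from WT (x axis, ± SE of the limma fit) of KO1, KO2 and KO3 for the other Hippo kinases and upstream regulators (left) and the other TEAD genes and nuclear partners (right), with filled symbols for an adjusted p below 0.05. Taok3, Runx1 and Jun lie right of zero and Nf2, Limd1, Ptpn14, Amot, Vgll4 and Runx2 left of it, and Lats1, Sav1, Fat4 and Map4k4 lie on both sides.

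Of 12 genes of the coactivators, TEAD factors and nuclear partners, KO1 had 4 that rose and 3 that fell, KO2 had 3 that rose and 3 that fell, and KO3 had 3 that rose and 4 that fell. Each share was near the 26.9%, 29.9% and 26.8% of all tested genes that rose and the 25.4%, 30.5% and 27.3% that fell. The medians were 0.11, 0.02 and -0.04. Without WT replicate 1 the counts were 6 and 3, 5 and 3, and 3 and 4. For all 15073 tested genes they were 4139 and 3848, 4595 and 4605, and 4164 and 4205. Vgll4, which competes with YAP for TEAD, fell by 0.65 in KO1, 0.35 in KO2 and 1.05 in KO3, where its mean was 1718 ± 90.0, against 3551 ± 103 in WT. Tead3 fell by 0.61 in KO3 and Tead4 rose by 0.55 in KO2. Tead2, whose WT libraries spread widely (3254 ± 1145), passed in no clone with all libraries, but without WT replicate 1 it was at 0.39 in KO1 (adjusted p = 0.00109) and 0.42 in KO2 (adjusted p = 0.000538). Jun, a subunit of AP-1, which acts together with TEAD at many enhancers, rose by 0.88, 0.54 and 0.74. Fosl1, another AP-1 subunit, was at -0.40 in KO1, fell by 1.16 in KO2 and was at 0.14 in KO3. The KO1 value of Fosl1 passed (adjusted p = 0.0158) but not without WT replicate 2 or 3 (adjusted p = 0.0544 and 0.0579). Runx1 rose by 1.27, 0.78 and 0.54 and Runx2 fell by 0.44, 0.75 and 0.51, both genes of RUNX factors that can bind YAP. With the neighbours' median subtracted Runx2 was at 0.16 in KO1 (adjusted p = 0.23).

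A list of 22 genes in common use as a YAP and TAZ target signature, which holds Ccn1, Ccn2, Ankrd1, Amotl2, Axl and Lats2, had 19 genes tested, and Igfbp3, Nt5e and Fjx1 were listed at 0 in every library. The test called 12 lower and 5 higher in KO1, 14 lower and 2 higher in KO2, and 13 lower and 4 higher in KO3, with median log2 differences of -0.46, -0.44 and -0.41. Leaving out the 6 genes already described, 13 were tested, of which 8 were lower and 5 higher in KO1, 9 lower and 2 higher in KO2, and 8 lower and 4 higher in KO3, with medians of -0.37, -0.42 and -0.41. Of all tested genes 25.4%, 30.5% and 27.3% fell and 26.9%, 29.9% and 26.8% rose, as above.

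The signature genes that fell most included Nuak2, a kinase of the AMPK family, which averaged 264 ± 17.7 in KO1, 264 ± 20.5 in KO2 and 261 ± 2.69 in KO3, against 1005 ± 23.5 in WT. The log2 differences of Nuak2 were -1.93, -1.93 and -1.94 (SE 0.08, adjusted p = 1.48e-09 to 1.99e-09). Tgfb2, a secreted growth factor, fell by 0.96 in KO1, 1.52 in KO2 and 0.93 in KO3, and Asap1, a regulator of ARF GTPases and focal adhesions, by 0.89, 0.78 and 0.89. Arhgef17, a guanine nucleotide exchange factor, fell by 0.48, 0.42 and 0.82, and Ccdc80, a matrix protein, by 0.37, 0.32 and 1.08. Other signature genes went up. Gadd45a, a stress-induced regulator of growth, averaged 712 ± 42.5 in KO1, 412 ± 47.4 in KO2 and 2313 ± 72.4 in KO3, against 201 ± 31.7 in WT, and rose by 1.83, 1.04 and 3.53. F3, which encodes tissue factor, rose by 1.18 in KO1 and 1.29 in KO3 and fell by 0.45 in KO2. Rbms3, an RNA-binding protein, rose by 0.63, 1.21 and 0.38.

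**Figure D5:**
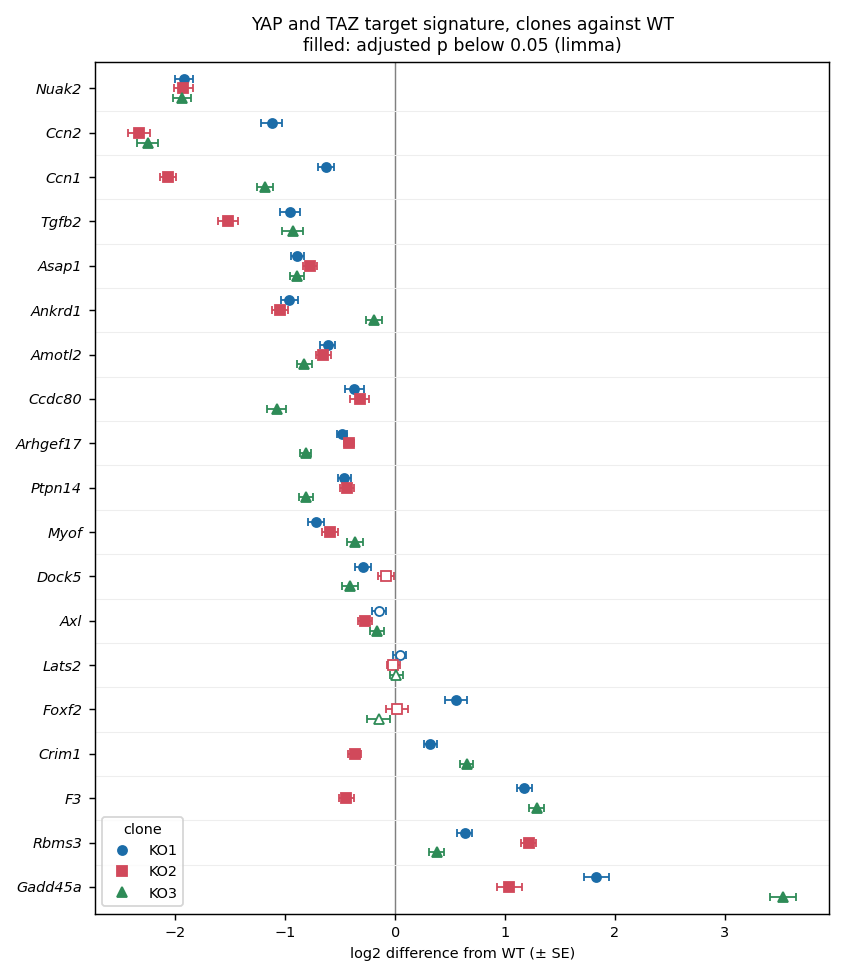
Log2 difference from WT (x axis, ± SE of the limma fit) of the 19 tested genes of the target signature in KO1, KO2 and KO3, ordered by their mean over the clones, with filled symbols for an adjusted p below 0.05. Nuak2, Ccn2, Ccn1 and Tgfb2 lie at the top, left of zero, and Gadd45a at the bottom reaches 3.53 in KO3.

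Ccn1 and Ccn2 belong to the CCN family of matrix proteins, whose other expressed members moved differently. Ccn5, known to oppose some actions of Ccn2, averaged 1895 ± 194 in KO1, 945 ± 54.4 in KO2 and 888 ± 61.9 in KO3, against 383 ± 38.8 in WT. It rose by 2.30, 1.30 and 1.21 (adjusted p = 1.31e-09, 1.90e-07 and 3.85e-07). Ccn4, a Wnt-induced member, averaged 1223 ± 19.6 in KO1, 268 ± 21.1 in KO2 and 2417 ± 231 in KO3, against 510 ± 29.4 in WT, and so rose in KO1 (1.26) and KO3 (2.24) and fell in KO2 (-0.92). Ccn3 and Ccn6 were too low to test. In the family of Axl, 3 of 5 genes were tested. Pros1, a ligand of its relatives, was at 0.00 in KO1, rose by 0.21 in KO2 and fell by 0.92 in KO3, and the receptor gene Tyro3 was at 0.08 and 0.17 in KO1 and KO2 and fell by 0.32 in KO3. With the neighbours' median subtracted Pros1 was at -0.27 in KO1 (adjusted p = 0.00455) and Tyro3 at 0.08 in KO3 (adjusted p = 0.464). Mertk and the Axl ligand gene Gas6 were too low to test.

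Serum response factor (SRF) and its actin-regulated cofactors share many target genes with YAP and TAZ in fibroblasts. Of 18 tested genes of SRF, its cofactors and the cytoskeleton, 9 were called lower and 2 higher in KO1, 13 lower and 4 higher in KO2, and 12 lower and 1 higher in KO3, with medians of -0.12, -0.49 and -0.32. Of all tested genes 25.4%, 30.5% and 27.3% were called lower and 26.9%, 29.9% and 26.8% higher. The 4 with the smallest p-values over the clones were Tpm4 and Tpm1 (tropomyosins), Actg1 (cytoplasmic gamma actin) and Actn1 (alpha actinin). Tpm4 fell by 0.56 in KO1, 1.10 in KO2 and 0.85 in KO3. Tpm1 fell by 0.42 in KO1, 0.60 in KO2 and 0.46 in KO3, and Actg1 by 0.54, 0.83 and 0.79. Actn1 fell by 0.67, 0.58 and 0.32, of which the last was 0.05 (adjusted p = 0.574) with the neighbours' median subtracted. The widest differences of the list, picked out after their values were seen, were in smooth muscle genes. Cnn1, a calponin, was the highest in KO1, where it rose by 2.69 to 103 ± 24.7, against 15.5 ± 6.03 in WT. Acta2, smooth muscle actin, was the lowest in KO2, where it fell by 3.09 to 1019 ± 87.3, against 8670 ± 729 in WT. Tagln, transgelin, was the lowest in KO3, where it fell by 3.47 to 22.7 ± 0.75, against 262 ± 9.44 in WT. These extremes were not shared by all clones: no tested gene of the list was below -0.67 in KO1 or above 0.45 in KO3.

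The genes whose levels ran most alike over the 12 libraries were sought among 10405 tested genes with a mean of at least 100, leaving out provisional symbols (Gm, Rik and the like). These correlations describe the libraries, which share 4 groups, and carry no test. For Ccn2 they included Insig1, which encodes a sensor in sterol control, and St3gal5 (Pearson r of log2 values 0.996 and 0.993). Insig1 averaged 4660 in KO1, 2837 in KO2 and 2981 in KO3, against 8062 in WT. For Ccn1 they were Fasn, which encodes fatty acid synthase, Exo1 and Hspa12a (0.995, 0.989 and 0.988), and for Ankrd1 the collagen gene Col4a2, Ddx31 and Kdelc1 (0.996, 0.993 and 0.991). The closest genes for Yap1 were Zfp985, Zfp652 and Xpo7 (0.967, 0.961 and 0.958) and for Tead1 Zfp715, Impad1 and Zfp148 (0.965, 0.923 and 0.920).

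The authors' deposited table of log2 fold changes gives -1.11 for Ccn2 in KO1, -2.31 in KO2 and -2.24 in KO3, and -0.62, -2.06 and -1.18 for Ccn1. Over the 30 values of the 10 genes against WT it differs from the values above by at most 0.0188 on the log2 scale, and 0 calls differ. Annotated antisense transcripts overlap Ccn2 (Gm15270, 6.64 normalized counts on average) and Tead1 (2310014F06Rik, 11.96), and no source used here states whether the counting used strand, so reads of that number could belong to either partner.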

How the data were processed

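RNA of 12 libraries (4 genotypes, 3 each) was analysed from the authors' deposited table. The tools named per the submitters' processing notes are cutadapt, Salmon 0.14.1 and DESeq2 1.24.0, with mouse build GRCm38 (mm10). No source used here gives their settings or whether counting used strand. The deposited values are a signal: counts divided by 1 size factor per library. In each library 99.99% of values were whole multiples of its smallest step within 0.02, which gave back whole reads. Salmon's estimates may have been rounded to reach them. The authors' deposited tables of log2 fold changes and of p-values for each clone against WT, per the file headers from DESeq2, served as an alternative. No column was left unused (0). Symbols and coordinates came from GENCODE M21, which held 54357 of the 54392 identifiers.

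A gene was tested where 3 or more libraries reached a normalized count of 10. Log2(normalized count + 1) values of all 4 groups were fitted by limma 3.58.1 in R 4.3.3, using its trended prior (8 residual degrees of freedom). Two-sided p-values of the 6 comparisons were adjusted over all 15073 genes by Benjamini and Hochberg's method, and those below 0.05 were called. Fold changes on this scale understate those of low genes. The procedure was tested on simulated data. Alternatives were other pseudocounts (0.5 and 5), filters, scalings and sample sets, a replicate block, the median of the 10 tested genes on each side subtracted, edgeR 4.0.16 and DESeq2 1.42.0 on recovered reads, and leaving out each library. Replicate numbers did not pair the libraries. The genes and lists were chosen with earlier results of these data known. Genes named are the 10 genes, Crls1, genes of the pathway lists, the most abundant markers and others picked out after their values were seen, the 3 closest in pattern (1 of those for Ccn2 is not reported here), and the 4 genes of the SRF list with the smallest largest-of-3 adjusted p.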

Additional observations from a re-analysis of the deposited data

Results flagged for a closer look

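For 7 of the 10 genes, effects against WT differed between clones by a test of the clone difference itself (limma, adjusted p below 0.05, 3 libraries each). The differences are on the log2 scale, all 3 libraries of one clone lying on one side of the other clone's in each. For Ccn1, KO2 minus KO1 was -1.44, KO3 minus KO1 was -0.56 and KO3 minus KO2 was 0.88. For Ccn2, KO2 minus KO1 was -1.21 and KO3 minus KO1 was -1.13. Ankrd1 had 0.77 for KO3 minus KO1 and 0.86 for KO3 minus KO2. Ajuba had -0.23 for KO2 minus KO1, 0.62 for KO3 minus KO1 and 0.84 for KO3 minus KO2, and Wwtr1 had -0.20, 0.30 and 0.51 in the same order. Yap1 had -0.26 for KO2 minus KO1 and -0.16 for KO3 minus KO1. Amotl2 had -0.21 for KO3 minus KO1. No technical or biological source of these differences was tested. In KO2 against KO1, KO3 against KO1 and KO3 against KO2, 5, 7 and 4 of the 10 genes were called. Of all tested genes 44.4%, 43.6% and 53.1% were called in these comparisons. The 7 genes were called in any of them, and the matching share of all tested genes was not computed.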

How the results depend on the processing

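Over 24 alternatives, 1339 of 1410 values of the 10 genes kept their direction and their side of the threshold or moved by less than the spread between replicates, 28 lost the call, 34 gained one, 2 reversed and 7 moved; 36 of the 60 gene comparisons were the same under all of them. Crls1 kept its call in 72 of 72. Of the genes of KO1 against WT, 8 were called without WT replicate 1 and 8 with the neighbours' median subtracted, against 5 in the report. Of all 15073 tested genes 7987 and 6988 were called under these settings, against 7878. In KO2 against KO1, 3 were called with the neighbours' median subtracted, against 5, and of all tested genes 5828, against 6695. Leaving out each library gave 5 to 8 called genes in KO1, 6 to 7 in KO2 and 5 to 7 in KO3 against WT. Between the clones it gave 5 to 6 in KO2 against KO1, 6 to 7 in KO3 against KO1 and 4 to 6 in KO3 against KO2. Of all 15073 tested genes, these fits called 6866 to 7987 in KO1, 8230 to 9200 in KO2 and 7367 to 8369 in KO3. Between the clones they called 5640 to 7746, 5552 to 7624 and 7125 to 8921, in the same order.

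With the neighbours' median subtracted, differences from WT took the other sign in KO1 for Pros1 (-0.27), Runx2 (0.16), Stk4 (-0.23), Taok2 (-0.25), Vgll3 (-0.0898) and Wtip (-0.49). In KO2 the same held for Crim1 (0.0043), Map4k4 (0.0556), Stk4 (-0.21) and Wwtr1 (0.33). In KO3 it held for Actn1 (0.0512), Ankrd1 (0.0022), Foxf2 (0.33), Myof (0.0244), Sav1 (-0.0645) and Tyro3 (0.0827). These values are differences from the nearby genes by construction. Other scalings moved the median of all genes by at most 0.06, but calls among the genes followed here changed. Quantile normalization called 7, 7 and 6 of them in KO1, KO2 and KO3 against WT, against 5, 6 and 7. Of all tested genes it called 8086, 9054 and 8121, against 7878, 9105 and 8151. In KO2 against KO1, KO3 against KO1 and KO3 against KO2 it called 6, 9 and 5, against 5, 7 and 4. Of all tested genes it called 7282, 6946 and 7970 there, against 6695, 6579 and 8008.

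With quantile normalization 8 Hippo regulators rose in KO1 and 12 in KO2, against 5 and 7. Of all 15073 tested genes 3792 and 4498 rose with it, against 4049 and 4507. In KO2, 5 nuclear partners rose without WT replicate 1 and 6 with the neighbours' median subtracted, against 3. All tested genes gave 4595 and 4289 that rose there, against 4507.

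Replicate numbers shared by the groups did not pair the libraries: over 18 same-numbered pairs the correlation of deviations was -0.221 to 0.123, and 3 of 12 libraries correlated best with their own number. With the replicate number as a block, 5, 6 and 5 of the 10 genes were called in KO1, KO2 and KO3 against WT. Between the clones 5, 7 and 4 were called. Of all 15073 tested genes this fit called 7521, 8862 and 7865 against WT, and 6321, 6172 and 7707 between the clones. The calls of Ankrd1 (adjusted p = 0.0767) and Axl (adjusted p = 0.0576) in KO3 were lost.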
